A study of Rattus norvegicus with 6 samples.

Results

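The baseline transcriptome of cultured neonatal rat ventricular cardiomyocytes was described from the 3 vehicle libraries of a perhexiline study. A gene was counted as expressed when its value was at least 1 FPKM (fragments scaled by gene length and by the depth of the library) in each of the 3 libraries. This floor kept 12636 of the 34257 genes in the table, or 36.9%. The study set 3 vehicle cultures beside 3 cultures given 1 µM perhexiline, an inhibitor of carnitine palmitoyltransferase, for 24 h. The perhexiline libraries were not used here and no comparison with the drug was made. All cultures were labelled as ventricular cardiomyocytes from newborn rats (Rattus norvegicus), with no genetic change named. The labels used here name no strain, exact age, sex, vehicle or time in culture, and do not say whether replicates came from separate isolations. The SDs below therefore measure only how these 3 samples differed, and that difference may be technical. With 1 group of 3 libraries no test was made, since an exact sign test cannot go below p = 0.25.

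Ventricular myocytes contract through sarcomeres, in which myosin thick filaments slide along actin thin filaments anchored at the Z-disc. Each beat starts with sodium and calcium entry through the surface membrane, continues with calcium release from the sarcoplasmic reticulum and ends when calcium is pumped back. In rodents the heart around birth is known to switch several contractile and metabolic genes from a fetal to an adult partner, and to turn from glucose and lactate toward fatty acids as fuel. Such partner genes are compared below as ratios within a library, which do not depend on how that library was scaled.

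Promoter sequences of sarcomere genes are shown first, because motifs bound by the muscle regulators SRF (the CArG box) and MEF2 (the MEF2 box) stood in a larger share of them than of expressed genes in general. Sequences are RefSeq promoters of build GRCr8, read 5′ to 3′ on the gene's own strand, and the 250 bases before each start site were searched on both strands. Of the 41 expressed genes in the lists of thick filament, thin filament and Z-disc genes, 33 had a promoter in that collection. A CArG box stood in 5 of the 33 (15.2%), against 1.23% of 8713 expressed genes with a promoter and 1.501% of all 27457 promoters. A MEF2 box stood in 6 of the 33 (18.2%), against 1.32% of expressed genes and 3.07% of all promoters. Both boxes have an A and T rich core. Capitals mark the match, with 10 flanking bases on each side where the window allowed. The examples are thick filament, thin filament and Z-disc genes in turn.
Myl3 CArG box, chr8:119616987-119617016, plus strand: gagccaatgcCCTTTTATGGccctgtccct
Mybpc3 MEF2 box, chr3:97550942-97550971, plus strand: tggaatttgtCTATATTTAGcaggtggcta
Acta1 CArG box, chr19:68784269-68784298, minus strand: tgcccaacacCCAAATATGGcttgggaagg
Nebl CArG box, chr17:85135454-85135483, minus strand: gctcccatctCCTAATAAGGaggctgggaa
Ldb3 CArG box, chr16:9924712-9924741, minus strand: gggttacagtCCATTTATGGgcgcagcaag
Fhl2 CArG box, chr9:52954616-52954645, minus strand: catttagagaCCAAAAATGGcttgcaggag
Fhl2 MEF2 box, chr9:52954551-52954580, minus strand: tggacattccTTATTTATAActctgctgac
Xirp1 MEF2 box, chr8:128635074-128635103, minus strand: tccacaagccCTAAAAATAAccagaccact
Smpx MEF2 box, chrX:41107219-41107248, minus strand: gtatcaaactCTATATTTAGgaagaacaac
Of the sarcomere promoters, 10 held at least 1 of these boxes, and Fhl2 alone held both. The short motif CATTCC, known from binding of TEAD factors, stood in 10 of the 33 sarcomere promoters (30.3%), against 10.02% of expressed genes and 11.8% of all promoters. The motif AGATAA, known from binding of GATA factors, stood in 5 (15.2%), against 4.98% and 10.05%. Among the 100 most abundant expressed genes, which include sarcomere genes, 77 had a promoter. Of these 77, 20.8% held CATTCC, 13.0% AGATAA, 5.19% a CArG box and 2.60% a MEF2 box. Each of these shares was above that of all expressed genes, although for the MEF2 box it was under the 3.07% of all promoters. Because the 100 genes include sarcomere genes, the shares cannot tell whether a motif is particular to sarcomere genes. These are matches of letters and are not shown to be sites in use.

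The promoter of Nppa, which encodes the secreted hormone atrial natriuretic peptide, is printed because it holds a TATA motif (capitals), found in few promoters of this culture. The sequence is the 60 bases before the start at chr5:163712124-163712183, plus strand, and the motif begins 39 bases before the start.
Nppa: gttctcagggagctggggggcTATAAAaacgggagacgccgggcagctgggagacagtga
The motif TATAAA, searched from 40 to 20 bases before the start on the gene's strand, stood in 5 of 77 promoters matched among the 100 most abundant expressed genes (6.49%). Over all expressed genes the share was 0.987% and over all promoters 1.37%.

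The 3 libraries held 13866500, 15241994 and 13616252 fragments assigned to genes, recovered from the deposited values, so that 1 fragment on a 1 kb gene was worth 0.0654 to 0.0727 FPKM. The log2 values of the expressed genes correlated at Pearson's r of 0.986 to 0.989 between libraries, over genes, which are not independent replicates. Among the 7007 expressed genes with a mean of at least 10 FPKM, the median coefficient of variation (CV) was 5.63%, beside 3.37% from counting error alone, and 97.2% of them had a CV under 20%. Vehicle 3 stood somewhat apart from the others. It was more than 1.5-fold under both other libraries for 41 of these 7007 genes, against 5 for vehicle 1 and 18 for vehicle 2. Many sarcomere genes and the peptide hormone genes Nppa and Nppb were also lowest in vehicle 3, not always by 1.5-fold. Each library's value is therefore given for some of them, and the mean ± SD for the others. The gene names came from the table, and 525 of the expressed genes had none. Of the expressed genes 1693 (13.4%) shared a protein record with another row and 2803 (22.2%) overlapped another row. Reads of such genes, and of near-identical families such as the actins and the myosin heavy chains, could have been split between rows, and their levels are uncertain to that extent. The 540 symbols of the gene lists used below gave 523 genes, and 17, among them Ttn, Tcap, Cd36, Pecam1, Kcnd2 and Atp2a1, were not analysed here.

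The cells showed the markers of cardiac muscle at high levels. Actc1, cardiac alpha actin (ENSRNOG00000008536), was at 8599, 8527 and 6468 FPKM in vehicle 1, 2 and 3. Tnnt2, cardiac troponin T (ENSRNOG00000033734), was at 3791, 3849 and 3334 FPKM. Myh6, the fast alpha myosin heavy chain (ENSRNOG00000025757), was at 3258, 3382 and 2868 FPKM. In all 3 genes vehicle 1 and 2 lay close together and vehicle 3 lowest. Nppa (ENSRNOG00000008176) was at 3486, 3047 and 2115 FPKM, a wider spread. Myh7, the slow beta myosin heavy chain (ENSRNOG00000016983), was at 753, 676 and 570 FPKM. In the coordinates of the table, for which no build is named in the labels or header, Myh6 spans chr15:33605654-33629699 and Myh7 lies next to it at chr15:33634422-33656089, both on the minus strand. All 11 cardiomyocyte markers in the table were expressed, and 10 of the 11 were lowest in vehicle 3, against 35.4% of all expressed genes. The 11 markers made up 4.36% of the summed FPKM of all genes.

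Of the 12636 expressed genes, 11450 (90.6%) were protein-coding, which is 51.5% of the 22250 protein-coding genes in the table. Long intergenic noncoding RNAs gave 90 expressed genes, or 2.91% of the 3090 listed. The median expressed gene had a mean of 12.0 FPKM, with quartiles at 4.67 and 27.3 FPKM. Expressed genes held 99.3% of the summed FPKM, and the 31 most abundant genes held 22.9% of the total of expressed genes. The 10 most abundant genes took 15.9% ± 0.578 (SD, n = 3) of the summed FPKM and the 100 most abundant 32.3% ± 0.566. The floor fell within a continuous range of values. Gcnt2, at 1.25, 1.00 and 1.00 FPKM, was just inside it, as were Fcgr2b and Rnf125. Doc2g, at 0.996, 1.88 and 1.57 FPKM, was just outside it, as were Trim15 and Tmem86b. A gene outside the floor was thus not necessarily silent.

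Mitochondrial and contractile transcripts filled the top of the order. Of the 10 most abundant named genes, 7 were encoded by the mitochondrial genome and the others were Actc1, Ankrd1 and Tnnt2. COX1, the catalytic subunit of cytochrome c oxidase, led with 17999, 16617 and 17745 FPKM, or 3.49% of the sum. COX3 followed at 11083 ± 813 FPKM and ATP6, a subunit of ATP synthase, at 10954 ± 860 FPKM (SD, n = 3, as for all values written so). These mitochondrial genes were lowest in vehicle 2, unlike the sarcomere genes among the top 25, which were lowest in vehicle 3. Transcripts of the mitochondrial chromosome together made 14.8% ± 0.779 of the summed FPKM and 7.45% ± 0.400 of the fragments. Ankrd1, a stretch-responsive protein of the Z-disc region, was at 3894 ± 340 FPKM, and Myl3, the ventricular essential light chain, at 2413 ± 264 FPKM. The other muscle genes among the top 25 were Tnnc1, cardiac troponin C, at 1600.4 ± 172 FPKM and Atp2a2, the calcium pump of the sarcoplasmic reticulum, at 1372 ± 107 FPKM. The genes with the narrowest spread there were Eef1a1, a translation elongation factor, at 2031 ± 27.9 FPKM, followed by Gapdh at 1302 ± 22.6 FPKM. Both share their protein records with other rows. Atp5f1b, the beta subunit of ATP synthase, was at 2274 ± 78.8 FPKM and Slc25a4, the muscle form of the mitochondrial ADP/ATP carrier, at 1195 ± 28.7 FPKM. Along the order of these 25 genes, neighbours were mostly not separated beyond their spread. All 3 libraries of one gene lay above all 3 of the next named gene only for COX1, ATP6, ND1, Eef1a1 and ND3. Slc25a4, the last of the 25, was not compared with a next gene.

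**Figure D1:**
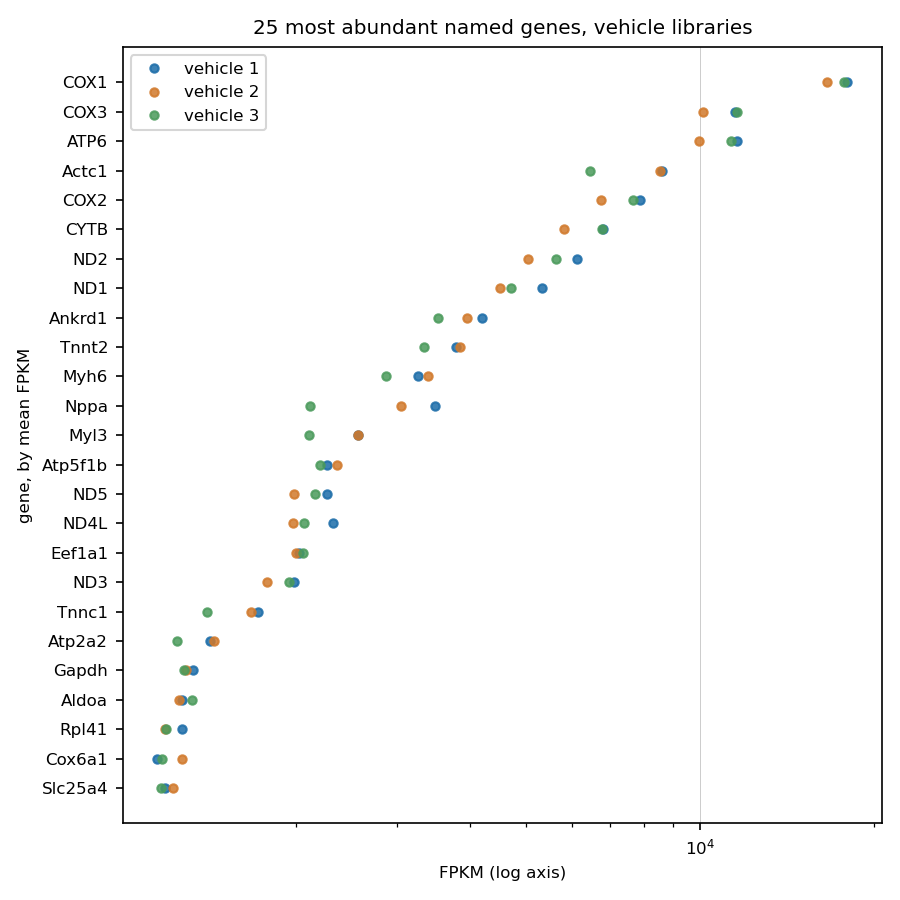
The 25 named genes with the highest mean FPKM in the vehicle libraries, in order of the mean, with FPKM on a log axis and 1 point per library. The mitochondrial genes were lowest in vehicle 2, while Actc1, Ankrd1, Tnnt2, Myh6, Nppa, Myl3, Tnnc1 and Atp2a2 were lowest in vehicle 3.

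Thick filament genes were expressed in 12 of 17 cases, with a median of 93.5 FPKM among the expressed against 12.0 FPKM for all expressed genes. The adult rodent isoform Myh6 exceeded the fetal isoform Myh7 in every library. The ratio of Myh7 to Myh6 was 0.231, 0.200 and 0.199. Mybpc3, cardiac myosin binding protein C, was at 465 ± 47.5 FPKM, whereas the skeletal forms Mybpc2 and Mybpc1 were at 6.67 ± 1.06 and 0.0304 ± 0.0526 FPKM. The M-band proteins Myom1 and Myom2, at 116 ± 9.14 and 121 ± 8.78 FPKM, were level, with ratios of 1.02, 0.917 and 0.942, and Myom1 was the higher as fragments. The regulatory light chains were low beside the essential light chain Myl3. Myl2, the ventricular regulatory light chain, was at 78.1, 72.0 and 63.8 FPKM, and its atrial partner Myl7 at 19.7, 21.3 and 15.7 FPKM. The ratio of Myl2 to Myl7 was 3.97, 3.37 and 4.06 per length, but Myl2 has 480 bases in the table and Myl7 2064, and as fragments the order turned round. Myl3 exceeded the atrial essential light chain Myl4 by 55.0, 63.9 and 59.3 times. Myh3 at 0.0541 ± 0.0303 FPKM and Myh8, listed at 0, the embryonic and perinatal skeletal myosins, were under the floor, as were Myom3 and Mybphl. All 12 expressed genes of this list were lowest in vehicle 3, against 35.4% of all expressed genes.

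Thin filament genes were the largest contractile group, with 14 of 18 expressed and 3.46% of the summed FPKM. Cardiac actin predominated over the other muscle actins. Acta1, skeletal alpha actin, was at 378 ± 21.4 FPKM and the ratio of Actc1 to Acta1 was 22.1, 21.8 and 18.3. Acta2, smooth muscle alpha actin, was at 818, 744 and 530 FPKM, and the ratio of Actc1 to Acta2 was 10.5, 11.5 and 12.2. Troponin I is exchanged during heart development from the slow skeletal form Tnni1 to the cardiac form Tnni3. Tnni3 was at 1073, 1143 and 978 FPKM and Tnni1 at 419, 438 and 323 FPKM, so that both were expressed. The ratio of Tnni3 to Tnni1 was 2.56, 2.61 and 3.03. Tropomyosin came mainly from Tpm1 at 850 ± 57.8 FPKM, with Tpm4 at 254 ± 14.6, Tpm2 at 230.5 ± 54.0 and Tpm3 at 71.9 ± 7.69 FPKM. Of the other skeletal troponins, Tnnt1, Tnni2 and Tnnc2 were under 1 FPKM on average, while Tnnt3, given below, passed the floor. Lmod2, leiomodin 2 of the thin filament pointed end, was at only 0.348 ± 0.206 FPKM, and another row of the table shares its protein record. All 14 expressed thin filament genes were lowest in vehicle 3, against 35.4% of all expressed genes.

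Z-disc genes were expressed in 15 of 17 cases, and 11 of these 15 were lowest in vehicle 3, against 35.4% of all expressed genes. After Ankrd1 came Actn2, sarcomeric alpha actinin, at 874 ± 59.04 FPKM, the small heat shock protein Cryab at 837 ± 9.11 FPKM and the intermediate filament desmin, Des, at 590 ± 84.5 FPKM. The ratio of Actn2 to its non-muscle relative Actn1 was 12.5, 12.6 and 13.7. Fhl2, whose promoter held both boxes shown above, was at 327.5, 323 and 320.2 FPKM. Myoz1, the skeletal partner of Myoz2 (294 ± 11.9 FPKM), was at 0.764 ± 0.0428 FPKM and Myot, myotilin, was listed at 0.

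**Figure D2:**
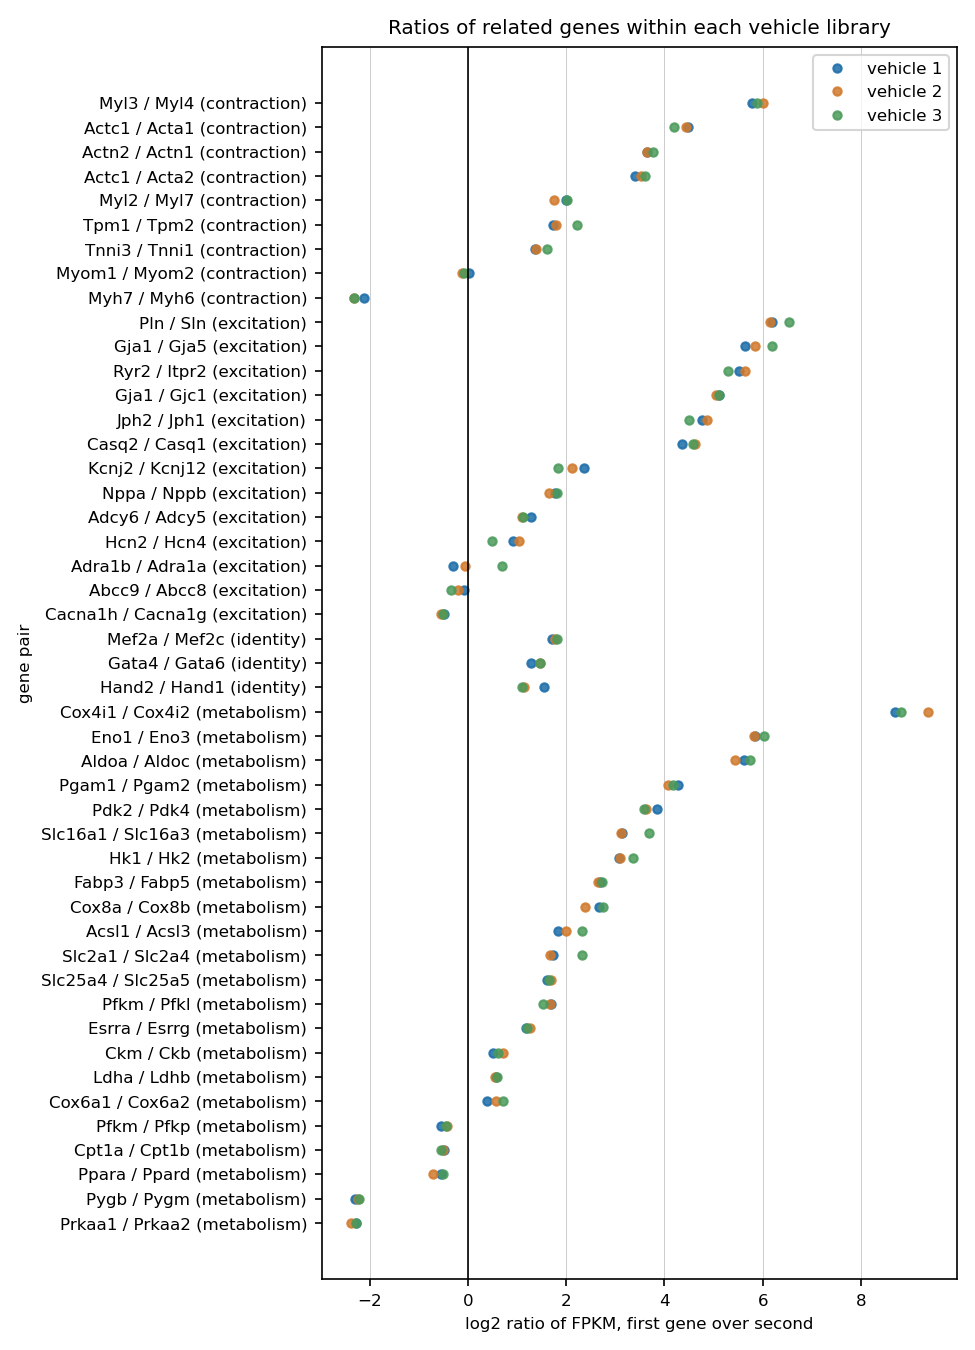
Ratios of FPKM between related genes within each vehicle library, on a log2 scale, for the reported pairs with both genes expressed; 1 point per library, and the line at 0 marks equal levels. Only Myom1 over Myom2 and Adra1b over Adra1a had libraries on both sides of the line.

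Over all pairs, the balance between related genes was similar in the 3 libraries. Of 60 pairs, 49 had both genes expressed. In 47 of the 49 the same gene was higher in all 3 libraries, in 11 the genes lay within 2-fold of each other, and in 17 they differed by more than 10-fold. The CV of the ratio was under 25% in 46 of the 49.

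Calcium store and release genes were expressed in 21 of 28 cases, and the cardiac forms of the pump, the release channel and the calcium buffer led their families. Atp2a2 was accompanied by its inhibitor phospholamban, Pln, at 997, 890 and 1075 FPKM, while sarcolipin, Sln, the inhibitor typical of atrium, was at 13.7, 12.5 and 11.5 FPKM. The ratio of Pln to Sln was 73.0, 71.1 and 93.3. Pln was highest in vehicle 3, where Atp2a2 was lowest. Casq2, the cardiac calcium buffer of the store, was at 384 ± 42.1 FPKM and exceeded the skeletal Casq1 by 20.5, 24.6 and 23.8 times. Ryr2, the cardiac calcium release channel, was at 134, 140 and 115 FPKM. Its relatives Ryr3 and Ryr1 were at 1.07 ± 0.332 and 0.0619 ± 0.0293 FPKM, Ryr3 passing 1 FPKM in 2 libraries. Itpr1 and Itpr2, inositol trisphosphate receptors, were at 10.5 ± 0.438 and 2.88 ± 0.0806 FPKM, and Itpr2 shares its protein record with another row. Jph2, which ties the store to the surface membrane, was at 196 ± 18.0 FPKM. Slc8a1, the sodium/calcium exchanger, was at 177 ± 18.2 FPKM, while Slc8a2 and Slc8a3 stayed under the floor. Of the calcium/calmodulin kinases, Camk2d was at 28.8 ± 1.26 FPKM and Camk2g, which shares its record with another row, at 0.269 ± 0.0460 FPKM.

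Of the voltage-gated calcium channel genes, 9 of 16 were expressed. Cacna1c, the pore of the L-type channel that triggers release, was at 34.3, 34.9 and 34.1 FPKM. Both T-type pores were of the same order, Cacna1g at 37.1, 38.8 and 31.9 FPKM and Cacna1h at 26.5, 26.4 and 22.6 FPKM. T-type channels are known from pacemaker cells and the fetal ventricle. The ratio of Cacna1h to Cacna1g was 0.715, 0.679 and 0.707, and the libraries of Cacna1c and Cacna1g overlapped. The other L-type pores, Cacna1d and Cacna1s, were at 0.517 ± 0.0727 and 0.334 ± 0.0168 FPKM. The beta subunit Cacnb2 led the group at 71.1 ± 1.92 FPKM. Cacna2d2 and Cacna2d1, the auxiliary alpha2delta subunits, were at 21.3 ± 3.41 and 16.5 ± 1.80 FPKM, with overlapping libraries.

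Of the voltage-gated sodium channel genes, 5 of 14 were expressed, and the whole list summed to 74.5, 77.4 and 65.3 FPKM. Vehicle 3 was lowest in 4 of the 5 expressed genes, against 35.4% of all expressed genes.

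Potassium channel genes were many and low, with 19 of 37 expressed and the highest mean at 31.6 FPKM. The delayed rectifiers that end the action potential in larger mammals were the leading voltage-gated pores. Kcnh2 was at 30.4, 34.3 and 30.0 FPKM and Kcnq1 at 20.5, 21.5 and 18.7 FPKM. Kcne4 and Kcne1 encode accessory subunits. They were at 27.2 ± 2.65 and 5.99 ± 2.86 FPKM, Kcne1 with a wide spread from 3.42 to 9.07 FPKM. The transient outward current, prominent in the adult rat ventricle, had little transcript from the genes below, with Kcnd2 not analysed here. Kcnd3 was at 6.04 ± 0.698 FPKM, Kcna4 at 1.35 ± 0.355 FPKM, and Kcnip2, the accessory subunit of Kcnd channels, at 0.114, 0.257 and 0.169 FPKM. Kcna5, an ultrarapid delayed rectifier, was at 0.0761 ± 0.0347 FPKM. Of the inward rectifiers that hold the resting potential, Kcnj2 was at 12.1 ± 1.43 FPKM and Kcnj12 at 2.81 ± 0.196 FPKM. The channel sensitive to ATP combines an inward rectifier pore with a sulfonylurea receptor. Its pore Kcnj11 was at 20.6 ± 1.89 FPKM and the other pore, Kcnj8, at 0.528 ± 0.150 FPKM. Both receptors were expressed, Abcc8 at 20.9, 23.0 and 20.01 FPKM and Abcc9 at 19.9, 19.97 and 15.8 FPKM, with ratios of Abcc9 to Abcc8 of 0.949, 0.867 and 0.789, which also turned round as fragments. Kcnk3, an acid-sensitive background channel, was at 24.9 ± 2.52 FPKM.

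The pacemaker channels Hcn2 and Hcn4 were at 9.90 ± 1.24 and 5.61 ± 0.489 FPKM, with ratios of 1.90, 2.04 and 1.41 that turned round as fragments, while Hcn3 was under the floor at 0.147 ± 0.0522 FPKM. Among connexins, Gja1, the ventricular gap junction protein, was at 353, 365 and 364 FPKM and exceeded Gjc1 by 34.3, 33.1 and 34.5 times. Gja5, typical of atrium and conduction fibres, was at 7.05, 6.33 and 4.97 FPKM. Of the pumps, 13 of 17 genes were expressed and 12 of the 13 were lowest in vehicle 3, against 35.4% of all expressed genes. Atp1b1, the beta1 subunit of the sodium pump, was at 430.1 ± 44.1 FPKM and the pump's regulator phospholemman, Fxyd1, at 440.1 ± 64.3 FPKM.

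**Figure D3:**
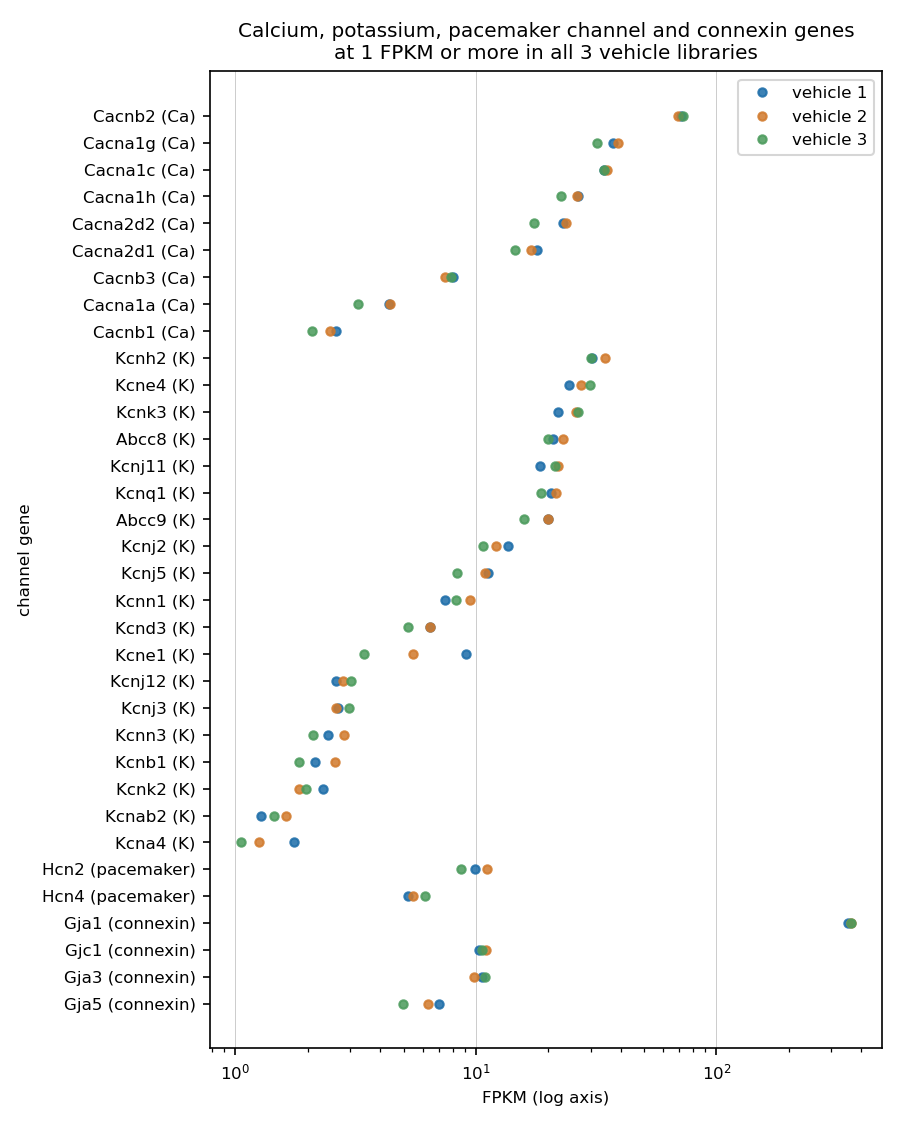
FPKM on a log axis of the expressed calcium, potassium and pacemaker channel genes and connexins, 1 point per vehicle library. Gja1 stands at 353 to 365 FPKM, while the highest ion channel gene shown, Cacnb2, has a mean of 71.1 FPKM.

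Receptors of the autonomic nerves and of circulating peptides were expressed in 18 of 22 cases. Chrm2, the muscarinic receptor of vagal slowing, was at 55.3, 55.4 and 55.8 FPKM. Adrb1, the main cardiac beta receptor, was at 21.7, 24.8 and 19.7 FPKM. Of the alpha1 receptors, Adra1b was at 12.8, 14.8 and 14.3 FPKM and Adra1a at 15.8, 15.3 and 8.80 FPKM. Which alpha1 receptor was higher therefore depended on the library. The adenylyl cyclases that serve beta receptors were led by Adcy6 at 63.0 ± 3.37 FPKM, with Adcy5 at 28.2 ± 2.67 FPKM. Ednra, an endothelin receptor, was at 24.0 ± 2.30 FPKM and Agtr1a, the angiotensin receptor, at 6.39 ± 0.262 FPKM. Secreted peptides had 5 of 9 genes expressed. Nppb, brain natriuretic peptide, was at 1015, 974 and 601 FPKM, and the ratio of Nppa to Nppb was 3.44, 3.13 and 3.52. Both hormones were lowest in vehicle 3, and their ratio stayed within a narrow range. The summed FPKM of the secreted peptides was 4540.3, 4061 and 2756, the widest relative spread of the groups with at least 5 expressed genes.

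Glucose uptake and glycolysis were represented by 23 of 28 genes, with a median of 111 FPKM among the expressed. Uptake was led by Slc2a1, the basal glucose transporter, at 53.5, 52.5 and 53.5 FPKM. The insulin-responsive transporter Slc2a4 was at 16.0, 16.4 and 10.8 FPKM. The ratio of Slc2a1 to Slc2a4 was 3.34, 3.20 and 4.97, and vehicle 3 stood apart through Slc2a4. Hexokinase came mainly from Hk1 at 226 ± 1.29 FPKM, with the insulin-regulated Hk2 at 25.1 ± 2.68 FPKM. For phosphofructokinase, Pfkp, at 121, 114 and 98.2 FPKM, exceeded the muscle form Pfkm, at 82.8, 84.9 and 71.6 FPKM, in every library. Aldoa, Gapdh, Ldha and Eno1 were the most abundant enzymes, and each shares its protein record with other rows. The muscle forms Eno3 and Pgam2 were at 12.6 ± 1.01 and 23.0 ± 0.858 FPKM, against 749 ± 9.79 FPKM for Eno1 and 417 ± 17.8 FPKM for Pgam1. A gene of the Pgam pair also shares its protein record with another row. Lactate dehydrogenase was drawn from both subunits, Ldha at 981 ± 32.2 FPKM and Ldhb, the heart subunit, at 664 ± 29.6 FPKM. Their ratio was 1.48, 1.46 and 1.502. Tpi1 was at only 8.32 ± 2.19 FPKM, a level that cannot be read as that of the enzyme because 3 other rows share its protein record. Slc16a1, a monocarboxylate carrier, was at 138 ± 8.84 FPKM.

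Entry of pyruvate into mitochondria was represented in full, with all 13 genes expressed. The carriers Mpc2 and Mpc1 were at 301 ± 5.30 and 173 ± 15.2 FPKM and the dehydrogenase subunit Pdha1 at 219 ± 11.7 FPKM. Of the kinases that switch the enzyme off, Pdk2 was at 73.2, 81.5 and 79.9 FPKM and Pdk4, a gene induced by fatty acids and fasting, at 5.08, 6.57 and 6.64 FPKM. All 19 genes of the citric acid cycle list were expressed as well, with a median of 178 FPKM. The list also holds cytosolic enzymes such as Mdh1, which lie outside the mitochondrial cycle. Its highest genes were Mdh1 at 665 ± 5.79 FPKM and the mitochondrial Mdh2 at 450.5 ± 19.2 FPKM.

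Fatty acid uptake and oxidation genes were expressed in 28 of 30 cases, with a median of 60.9 FPKM. Fabp3, the fatty acid binding protein of heart, was at 653, 650 and 657 FPKM. The trifunctional protein subunits Hadhb and Hadha were at 171 ± 8.53 and 139 ± 5.68 FPKM and Acadl at 140 ± 10.8 FPKM. Carnitine palmitoyltransferase 1 admits long-chain fatty acids to the mitochondrion and is the enzyme that perhexiline inhibits. Its muscle form Cpt1b was at 63.4, 68.5 and 81.1 FPKM and its liver form Cpt1a at 45.2, 48.4 and 55.1 FPKM. Both forms were expressed, and the muscle form was higher in every library. The ratio of Cpt1a to Cpt1b was 0.713, 0.707 and 0.679. The brain form Cpt1c was at 8.35 ± 0.760 FPKM. Of the acyl-CoA synthetases, Acsl1 was at 66.8, 68.2 and 86.1 FPKM. Cpt1a, Cpt1b and Acsl1 were highest in vehicle 3, as were 13 of the 28 expressed genes of the list, against 35.8% of all expressed genes. The summed FPKM of the list differed little, at 2435, 2431 and 2506. Echs1 was under the floor in vehicle 1 and 2 at 0.291 and 0.655 FPKM but at 8.74 FPKM in vehicle 3, and another row shares its protein record.

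Ketone body and branched-chain amino acid genes were expressed in 11 of 12 cases, led by Oxct1, which activates ketone bodies, at 75.5 ± 8.23 FPKM. In the cytochrome oxidase pair Cox6a the ubiquitous form exceeded the heart and muscle form. Cox6a1 was at 1152, 1271 and 1173 FPKM and the heart form Cox6a2 at 876, 858 and 721 FPKM. Cox8a exceeded Cox8b by 6.34, 5.22 and 6.71 times, although Cox8a shares its record with another row. Cox7a1, the heart and muscle form of its subunit, was at 0.341, 0.263 and 0.0479 FPKM, under the floor, and Cox7a2 at 603 ± 29.4 FPKM. Each shares its record with another row, so their order cannot be read from these values.

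Energy stores included creatine kinase from both cytosolic forms, Ckm at 190.4 ± 14.4 FPKM and Ckb at 125 ± 11.4 FPKM. The ratio of Ckm to Ckb was 1.43, 1.64 and 1.53, and a gene of this pair shares its protein record with another row. The mitochondrial creatine kinase of muscle, Ckmt2, was at 1.04, 0.835 and 0.342 FPKM, under the floor in 2 libraries. Myoglobin, Mb, the oxygen store of adult heart, was at 23.4, 20.4 and 28.0 FPKM. Glycogen genes were higher, with Gyg1 at 410 ± 23.5 FPKM and muscle glycogen phosphorylase, Pygm, at 236 ± 3.04 FPKM, against 49.5 ± 1.62 FPKM for the brain form Pygb. The regulators of these pathways were expressed in 16 of 18 cases. Prkaa2, the muscle catalytic subunit of AMP-activated kinase, was at 81.0 ± 3.15 FPKM and Prkaa1 at 16.3 ± 0.855 FPKM. The nuclear receptors of oxidative metabolism were led by Esrra at 68.6 ± 4.02 FPKM and Esrrg at 29.6 ± 1.501 FPKM, an order that turned round as fragments, not scaled by length. Ppara was at 9.25 ± 0.487 FPKM and Ppard at 14.0 ± 0.485 FPKM, with ratios of Ppara to Ppard of 0.680, 0.611 and 0.698. Their coactivators Ppargc1a and Ppargc1b were at 30.5 ± 1.11 and 33.6 ± 3.66 FPKM, and Pparg was at 0.809 ± 0.108 FPKM.

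Cardiac transcription factors were expressed in 18 of 20 cases. Tbx20 was at 152 ± 7.25 FPKM, Gata4 at 129 ± 2.87 FPKM and Nkx2-5 at 123 ± 11.0 FPKM. All are core factors of the heart muscle programme. Gata4 exceeded Gata6 by 2.42, 2.75 and 2.75 times and Mef2a exceeded Mef2c by 3.29, 3.43 and 3.49 times. A gene of the Gata pair shares its protein record with another row. The factor that binds CArG boxes, Srf, was at 50.2, 58.3 and 43.7 FPKM, and its partner Myocd at 23.9 ± 3.40 FPKM. Irx4, a ventricular factor, was at 30.5 ± 2.60 FPKM. Isl1, of cardiac progenitors and the sinus node, and Mef2b were at 0.405 ± 0.0946 and 0.412 ± 0.228 FPKM, under the floor.

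Markers of other cell types were present in some lists and nearly lacking in others. In bulk RNA, fewer cells of a type and less RNA per cell cannot be told apart, so the sums below are not cell shares. All 12 fibroblast markers were expressed, with a sum of 1093, 1131 and 1120 FPKM. Col1a1, fibrillar collagen, made up much of it at 538 ± 21.8 FPKM, followed by Col3a1 at 195 ± 4.93 FPKM, Postn at 96.9 ± 6.06 FPKM and Dcn at 93.1 ± 8.90 FPKM. The cardiomyocyte markers summed to 23570, 23118 and 18810 FPKM. Vehicle 3 was thus lowest in the cardiomyocyte sum, while its fibroblast sum lay between those of the other libraries.

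Smooth muscle and pericyte markers were expressed in 11 of 12 cases, with a sum of 1817, 1684 and 1318 FPKM. The most abundant were Acta2, Des and Tagln at 199 ± 14.9 FPKM. Des is also a cardiomyocyte gene, and Acta2 is transcribed in immature myocytes and in activated fibroblasts. The more selective Myh11 was at 6.71 ± 0.418 FPKM, Cnn1 at 24.1, 20.4 and 12.1 FPKM and the pericyte gene Rgs5 at 0.776 ± 0.333 FPKM. Macrophage markers were expressed in 8 of 13 cases, with a sum of 113, 120 and 115 FPKM. Lyz2, lysozyme, was at 48.2 ± 2.82 FPKM, Cd68 at 23.2 ± 1.78 FPKM and Tyrobp at 16.6 ± 1.24 FPKM. Adgre1, Aif1, Cd163, C1qb and C1qc did not reach the floor in all libraries.

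Endothelial markers were expressed in 4 of 11 cases. Kdr was at 8.71 ± 1.17 FPKM and was the highest, while Cdh5 was at 0.919 ± 0.0706 FPKM, Vwf at 0.177 ± 0.0508 FPKM and Cldn5 was listed at 0. None of 9 lymphocyte markers was expressed, 6 of them listed at 0. Erythroid markers reached the floor for 2 of 9 genes, Hba-a2 at 3.43 ± 1.08 FPKM and Hba-a1 at 2.65 ± 0.891 FPKM. Adipocyte markers did so for 1 of 6, Cfd at 1.48 ± 0.178 FPKM, and skeletal muscle markers for 2 of 8, Mylpf at 2.69 ± 0.541 FPKM and Tnnt3 at 1.63 ± 0.310 FPKM. The epicardial and mesothelial list was low but complete, with all 10 genes expressed and a sum of 66.0, 69.6 and 64.4 FPKM. Its leading gene was Aldh1a2, a retinoic acid synthesizing enzyme, at 19.6 ± 0.796 FPKM, and Wt1 was at 4.02 ± 0.509 FPKM. Schwann cell and neuron markers were expressed in 5 of 10 cases, led by Tubb3 at 10.2 ± 0.710 FPKM, with Th listed at 0.

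Atrial genes were expressed in 9 of 10 cases, led by Myl4 at 46.7, 40.1 and 35.5 FPKM, but Bmp10, an atrial growth factor, was at 0.0180 ± 0.0311 FPKM. Of the conduction system list, 5 of 10 genes were expressed, and Shox2, Isl1, Cntn2 and Cpne5 were among those under the floor. All 15 cell division genes were expressed at low levels, from 1.22 ± 0.0725 FPKM for Cenpf to 9.18 ± 1.01 FPKM for Anln, with Cdk1 at 8.28 ± 0.551 FPKM and Mki67 at 4.10 ± 0.275 FPKM. Which cells of the culture held these transcripts was not tested. Immediate early genes were expressed in 16 of 18 cases, led by Jund at 79.5 ± 4.34 FPKM. Fos was at 13.0, 12.6 and 7.65 FPKM. Of 5 Y-linked genes in the table, 2 were expressed, Eif2s3y at 12.6 ± 0.412 FPKM and Kdm5d at 2.87 ± 0.272 FPKM. Ddx3y, at 1.01, 1.13 and 0.948 FPKM, missed the floor, and Usp9y and Sry were listed at 0.

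**Figure D4:**
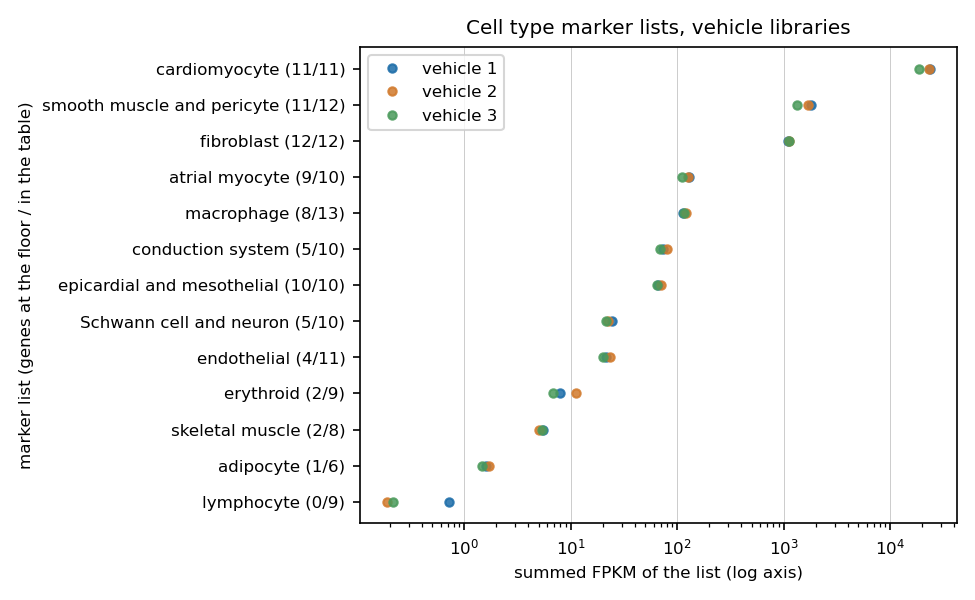
Summed FPKM of each cell type marker list on a log axis, 1 point per vehicle library, with the number of expressed genes and of genes in the table beside each name. The cardiomyocyte sum runs from 18810 to 23570 FPKM, the fibroblast sum from 1093 to 1131 FPKM, and the lymphocyte sum stays under 1 FPKM.

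The 3 libraries differed by group of genes. Sums relative to the mean of the 3 libraries put vehicle 3 at 0.728 for secreted peptides and 0.820 for smooth muscle and pericyte markers. Vehicle 3 was at 0.860 for the thin filament and 0.888 for both the thick filament and the ion pumps. Of the 5 expressed secreted peptide genes, only Nppa and Nppb, which made most of the sum, were lowest in vehicle 3. The median ratio of vehicle 3 to the mean of vehicle 1 and 2 over these 5 genes was 0.971. For fatty acid genes vehicle 3 was at 1.02 and for fibroblast markers at 1.00. Vehicle 3 was not lower throughout, since it was the lowest library for 35.4% and the highest for 35.8% of all expressed genes. The cardiomyocyte markers were at 0.862 of the mean in vehicle 3. Their list shares genes with the secreted peptide, thin filament and thick filament lists, among them Nppa, Actc1, Tnnt2 and Myh6. These sums are therefore not independent, and the part of the cardiomyocyte markers in the difference was not tested.

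**Figure D5:**
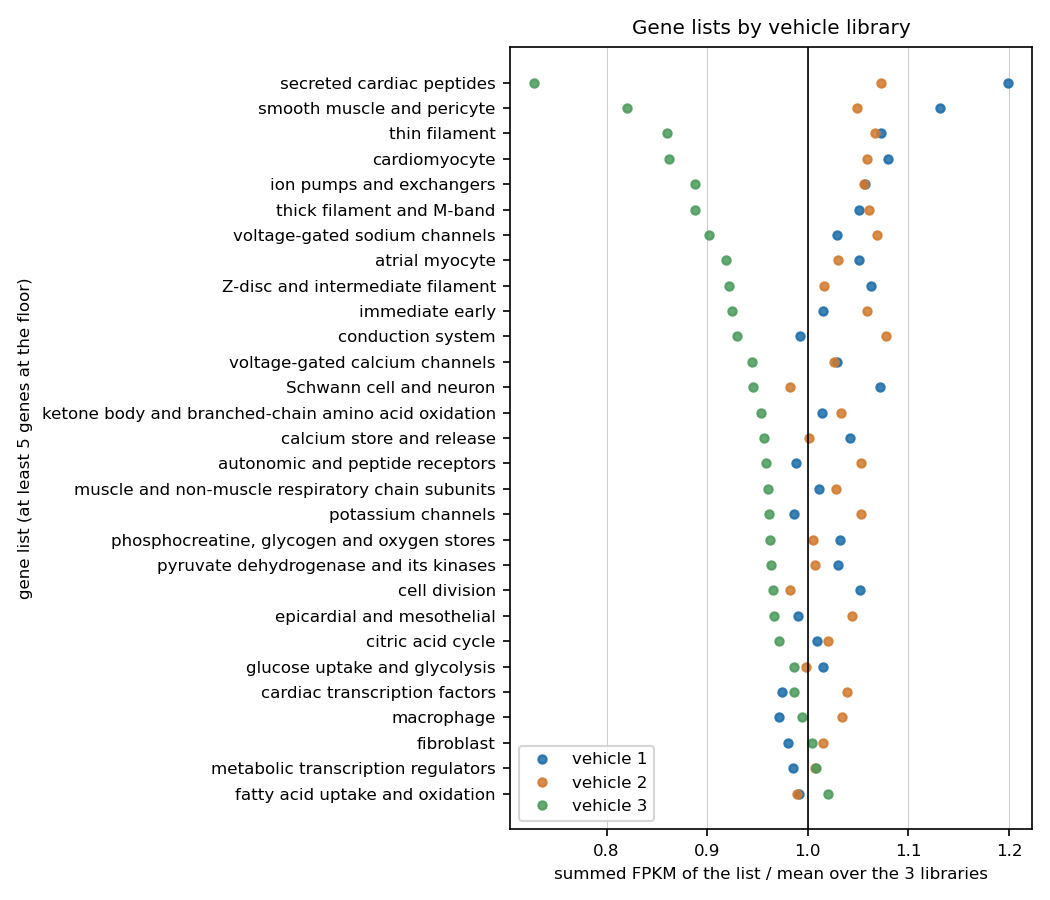
Summed FPKM of each gene list with at least 5 expressed genes, divided by its mean over the 3 vehicle libraries, 1 point per library. Vehicle 3 runs from 0.728 for secreted cardiac peptides, where Nppa and Nppb make most of the sum, to 1.02 for fatty acid genes.

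The most variable genes with a mean of at least 10 FPKM were mostly genes with copies. Of the 15 with the highest CV, 12 shared a protein record with another row, against 13.4% of all expressed genes. Ndufa1, a complex I subunit, was at 1.37, 162 and 2.01 FPKM, and Selenow, a selenoprotein, at 2.18, 19.1 and 82.5 FPKM. The others were Fam50a, Capns1, Rplp2, Tma7, Map2k3, Rps6, Rpl7a, Cd151, Myh9l1, Mff, Rbm39, C2cd4b and Rps19l2. Among genes without a shared record, a choice made after the values were seen, the 15 most variable were lowest in vehicle 3 in 11 cases and highest there in 4. Those highest in vehicle 3 were Hmox1, heme oxygenase, at 165, 156 and 279 FPKM, Nqo1, a quinone reductase, at 18.6, 19.0 and 40.99 FPKM, the chemokine Ccl20 at 18.9, 16.0 and 32.7 FPKM and Cyp1b1 at 11.6, 11.7 and 19.7 FPKM. Vehicle 1 and 2 were close in each of these 4 genes. Among those lowest in vehicle 3 were Adam33, a membrane protease, at 73.1, 79.8 and 39.6 FPKM and Cnn1, given above. Some low values of the table cannot be read as low transcript levels. Fth1, ferritin heavy chain, which nearly all cells use, had a listed value of 0 throughout. The peroxidase Gpx4, also widely used, was at 0.495, 0.186 and 0.0812 FPKM. Fth1 shares its record with another row, and both genes overlap another row. Both were looked at after their values were known.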

How the data were processed

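Poly(A) RNA of the 3 vehicle libraries was sequenced as paired 150-base reads with a strand-marking kit, per the labels' protocols. The values are FPKM per gene as deposited by the authors, 1 column per library, per the file headers. HISAT2 2.0.5 and DESeq2 are named, with no role, in the submitters' processing notes. For the build, annotation and counter, nothing is given in the sources used here. Each FPKM value multiplied by the gene length of the table and divided by a constant for its library came out as a whole number of fragments (within 0.01, for 100% of values), which gave the depth of each library and the CV from counting error. The members, gene lists and pairs were chosen with earlier results of these data known. Expressed genes had at least 1 FPKM in all 3 libraries. Named genes were the 5 markers, the 25 most abundant named genes, the 4 most abundant and the unexpressed members of each list, both genes of each pair, the 15 genes of highest CV at a mean of at least 10 FPKM, and the 3 genes on either side of the floor; other members of the lists and the genes singled out at the end were named after their values were seen. Ratios were taken within a library on FPKM. Levels are the mean ± SD of 3 libraries and no test was run. The alternatives were other floors, each library left out, fragments in place of FPKM, 1 FPKM added, a rescaled sum and fewer genes. Motifs were searched in RefSeq GRCr8 promoters matched by symbol. Python 3.11.15, numpy 2.4.6, pandas 2.3.3 and matplotlib 3.10.9 were used, and the scripts were tested on simulated data. Some genes of the lists and pairs and some of the matched sequences are not reported here, although the counts include them.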

Additional observations from a re-analysis of the deposited data

How the results depend on the processing

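The number of expressed genes was 12636, and 13989 at a floor of 0.5 FPKM, 8896 at 5 FPKM, 13281 with 2 of 3 libraries, 13383 by the mean, and 12839 to 12872 with 1 library left out. The 100 most abundant genes held 32.3% of the summed FPKM, 22.4% without mitochondrial genes and 24.4% as a share of fragments. As log2 ratios, Tnni3 over Tnni1 was 1.45 per length and 0.76 as fragments, and Cpt1a over Cpt1b was -0.52 and -0.32. As fragments, which favour the longer gene, 4 pairs that had the same gene higher in all 3 libraries changed sides: Myl2 over Myl7 (-0.18), Abcc9 over Abcc8 (0.39), Hcn2 over Hcn4 (-0.30) and Esrra over Esrrg (-0.092). The level pair Myom1 over Myom2 also did so, from -0.06 to 0.10. With 1 library left out, Adra1b over Adra1a, which differed in side between libraries, went from 0.11 to -0.18 without vehicle 3. No other pair changed sides with a library left out, and none of 59 did with 1 FPKM added. The fibroblast sum of 1114 FPKM was 2231 after rescaling each library to the same sum (the TPM scale) and 577 without Col1a1. The macrophage sum of 116 FPKM was 232 and 67.8 without Lyz2 in the same way. The median CV of 5.63% was 5.83% after rescaling, 7.23% from a mean of 1 FPKM, and 5.58% without genes that share a protein record, an alternative chosen after seeing the data. With 1 library left out, 111 of 111 list counts stayed within 1.5 times. Counts of lists with low values depended more on the floor. At 5 FPKM the cell division count fell from 15 to 3, the epicardial and mesothelial count from 10 to 5 and the potassium channel count from 19 to 11. The endothelial count of 4 became 8 at 0.5 FPKM and 1 at 5 FPKM. At 5 FPKM the cardiomyocyte count stayed at 11 and the fibroblast count went from 12 to 10. No paired analysis was possible because the results come from 1 group and from no test. Depth limits genes near the floor most, where 1 fragment on a 1 kb gene is worth up to 0.0727 FPKM.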
